A study of Mus musculus with 24 samples.

Results

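Kupffer cells are the resident macrophages of the liver, and 10 genes that mark or equip them in mice were followed here across the livers of the study: Clec4f, Timd4, Cd163, Folr2, Vsig4, Cd5l, Marco, C1qa, C1qb and C1qc. They were chosen by gene name from the table of long RNA counts, which listed 18314 entries; all 10 were found, and all 10 passed the filter on low counts that left 13832 entries for testing. The mice were male C57BL/6 animals of wild-type genotype. HFD plus HQHF mice received a high-fat diet and, after 12 weeks of it, HQHF (the Huatanqushihuoxue Formula, a herbal preparation) by gavage. HFD mice received the high-fat diet without HQHF, and control mice a normal diet. Each group had 4 long RNA libraries from whole liver, out of 9 mice per group in the study; which of the study's HQHF doses these libraries represent is not given in the labels used here, nor is the age of the mice. Every library has a batch code of its own, so batch and library cannot be told apart.

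Kupffer cells settle in the liver before birth, sit inside the sinusoids, and clear particles, bacteria, dying cells and free haemoglobin from portal blood. Their identity is kept up by signals from the neighbouring endothelial, stellate and liver parenchymal cells, which act through the transcription factors LXR-alpha (Nr1h3), ID1, ID3, MAF and SPIC. In mouse fatty liver, resident Kupffer cells can be lost and monocyte-derived macrophages can settle in their place; newly settled cells acquire CLEC4F early and TIM4 late. CLEC4F thus marks newly settled and long-settled Kupffer cells alike in mouse liver, and TIM4 mainly the long-settled cells. TIM4, C1q, MARCO, CD163 and FOLR2 are also made by macrophages of other organs.

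Total counts ran from 33380900 to 46454400 per library. HFD plus HQHF 3 and control 2 stood apart: the 7 hepatocyte markers (Alb, Apoa1, Ttr, Cps1, Cyp2e1, Tat and Hpd) together took 0.0404% of counts in HFD plus HQHF 3 and 0.851% in control 2, against 5.68% to 12.2% in the other 10 libraries. A list of 7 adipocyte markers summed to 9277 CPM in HFD plus HQHF 3 and 15187 CPM in control 2, against at most 341 CPM in the others (CPM is the count scaled to a common library size, here by the library total). All groups were therefore compared over the other 10 libraries (3 HFD plus HQHF, 4 HFD and 3 control), and the levels in the pair set aside are given at the end. Among the 10, control 1 held 1672 CPM of 5 pancreatic acinar markers, against at most 21.9 CPM in the other 9, and HFD 3 had the highest adipocyte sum and the lowest hepatocyte share. Results are in CPM after TMM scaling (trimmed mean of M values, which sets libraries against each other by the bulk of their genes) and in log2 fold change ± SE from edgeR's quasi-likelihood test on counts, where a gene counts as called if its p, adjusted by Benjamini and Hochberg's method across the 13832 entries, is under 0.05.

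The 10 genes did not move as a block. Clec4f, Timd4, Cd163 and Folr2 fell in HFD livers relative to control livers, with log2 fold changes from -2.06 to -0.71, and these 4 genes rose in HFD plus HQHF livers relative to HFD livers, with log2 fold changes from 1.12 to 2.29. With library totals as the scaling the 4 genes kept these directions, but 0 of them were called in the first comparison and only Clec4f in the second. C1qb and C1qc rose in HFD livers. Vsig4, Cd5l, Marco and C1qa passed the test in neither direction in either comparison. No member was called between HFD plus HQHF livers and control livers. In whole-liver RNA, fewer Kupffer cells and less RNA of a gene per Kupffer cell cannot be told apart. The HFD libraries enter both of the first comparisons, so a fall in HFD livers against control and a rise in HFD plus HQHF livers against HFD are not separate pieces of evidence.

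**Figure D1:**
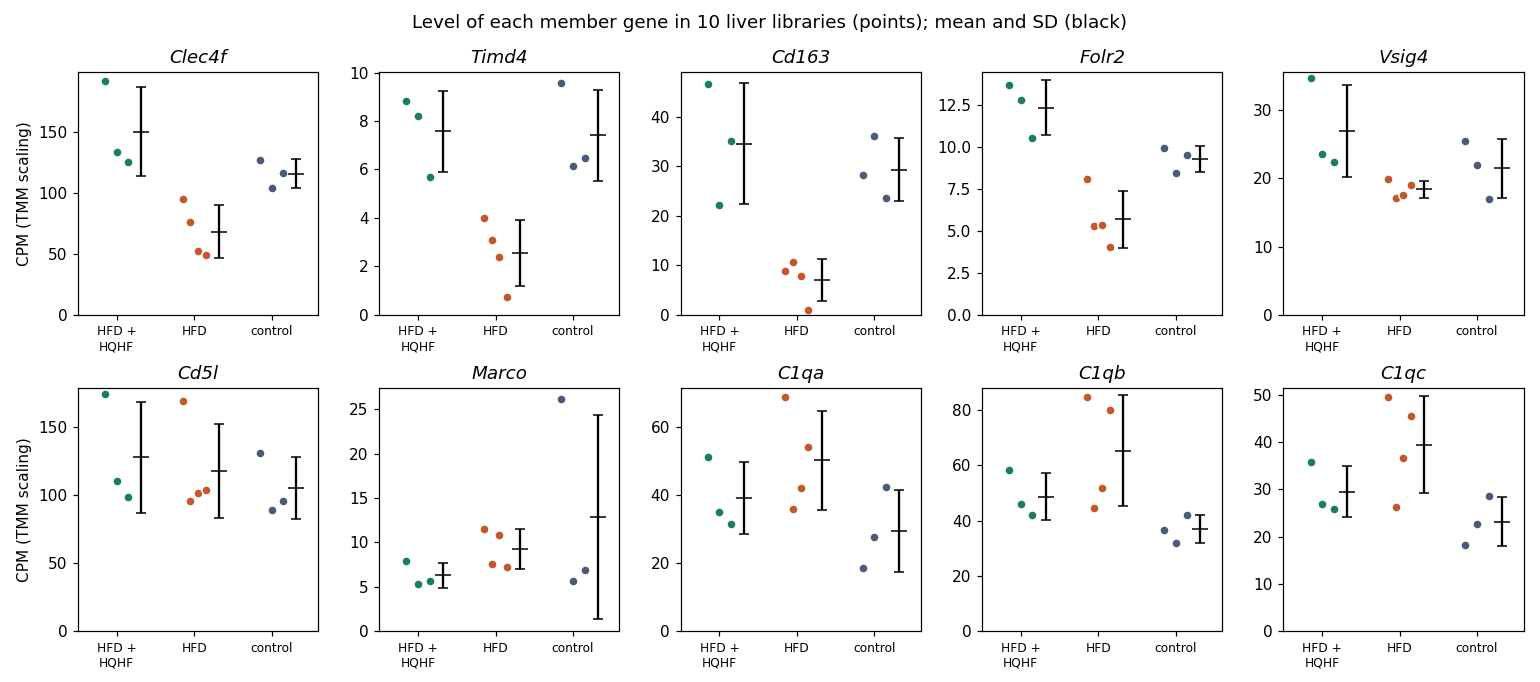
Level of each of the 10 genes (panels) in CPM with TMM scaling on the vertical axis, for the 3 HFD plus HQHF, 4 HFD and 3 control libraries; each point is 1 library and black bars give mean and SD. For Clec4f, Timd4, Cd163 and Folr2 the 4 HFD points lie below all points of both other groups, while the HFD points of C1qb lie above all control points and overlap the HFD plus HQHF points.

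RefSeq promoter windows (mouse build GRCm38.p6, 250 bases before to 50 bases after the annotated start) were at hand for 9 of the 10 genes, in 10 windows because Folr2 has 2. The 250 bases before the start are printed below for a pair of genes that fell in HFD livers (Clec4f, Timd4) and a pair that rose (C1qb, C1qc). Capitals mark exact matches, on either strand, to TGCTGA (the core bound by MAF factors; TCAGCA on the other strand) and to GAGGAA (the core bound by PU.1, the macrophage factor encoded by Spi1; TTCCTC on the other strand). The windows lie at chr6:83656117-83656366 (minus strand) for Clec4f, chr11:46810549-46810798 (plus strand) for Timd4, chr4:136886201-136886450 (minus strand) for C1qb and chr4:136892915-136893164 (minus strand) for C1qc, and each is written in the direction of its gene.
Clec4f: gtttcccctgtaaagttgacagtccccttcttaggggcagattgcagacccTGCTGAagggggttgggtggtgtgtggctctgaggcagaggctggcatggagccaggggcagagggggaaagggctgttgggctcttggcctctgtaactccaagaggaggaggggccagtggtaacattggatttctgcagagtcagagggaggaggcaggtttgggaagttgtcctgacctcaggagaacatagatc
Timd4: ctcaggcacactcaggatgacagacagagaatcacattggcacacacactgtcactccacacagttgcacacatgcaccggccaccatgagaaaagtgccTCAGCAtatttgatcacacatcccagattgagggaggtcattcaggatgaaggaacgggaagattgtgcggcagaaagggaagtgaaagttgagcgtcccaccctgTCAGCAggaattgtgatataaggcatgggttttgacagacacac
C1qb: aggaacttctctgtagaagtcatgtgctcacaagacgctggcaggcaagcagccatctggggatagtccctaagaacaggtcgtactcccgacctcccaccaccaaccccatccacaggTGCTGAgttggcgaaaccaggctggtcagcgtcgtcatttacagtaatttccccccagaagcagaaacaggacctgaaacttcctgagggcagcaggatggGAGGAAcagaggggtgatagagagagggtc
C1qc: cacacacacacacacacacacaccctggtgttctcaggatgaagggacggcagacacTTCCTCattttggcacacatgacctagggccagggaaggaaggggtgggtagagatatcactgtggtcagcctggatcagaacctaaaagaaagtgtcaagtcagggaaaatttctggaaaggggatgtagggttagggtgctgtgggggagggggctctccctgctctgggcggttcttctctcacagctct

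Over the full 300-base windows, the MAF core matched in 6 of the 9 genes (Clec4f, Timd4, Folr2, Vsig4, Cd5l and C1qb). By window, it matched in 7 of the members' 10 and in 19.5% of all 32851 promoter windows. The PU.1 core matched in 5 of the 9 genes (Vsig4, Cd5l, Marco, C1qb and C1qc), in 5 of the 10 windows and in 28.3% of all windows. Counted from the start, Clec4f held its MAF core at -199, Timd4 held 2, at -150 and -44, and C1qb held both motifs, the MAF core at -131 and the PU.1 core at -30. None of the members' windows held the perfect direct repeat bound by LXR (DR4, 0.015% of all windows), the RBPJ site GTGGGAA (6.38%) or the SMAD palindrome GTCTAGAC (0.213%). The MAF core occurred in genes that fell and also in C1qb, which rose. No occupancy was measured, and the matches describe sequence only.

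Clec4f (ENSMUSG00000014542) encodes a C-type lectin that in mice is made almost only by Kupffer cells. Its level was 193, 134 and 126 CPM in HFD plus HQHF livers, 95.5, 76.4, 52.9 and 49.1 CPM in HFD livers, and 128, 104 and 116 CPM in control livers. Every HFD liver was below every other liver, and HFD 3 and HFD 4 were the lowest. Clec4f fell in HFD livers relative to control livers (68.5 ± 21.7, SD, n = 4, against 116 ± 11.9 CPM, n = 3; log2 fold change -0.76 ± 0.24, edgeR adjusted p = 0.0408). It rose in HFD plus HQHF livers (151 ± 36.4 CPM, n = 3) relative to HFD livers, with a log2 fold change of 1.14 ± 0.24 (edgeR adjusted p = 0.0133). Clec4f was the single member that stayed called in the second comparison when libraries were scaled by their totals (0.60, edgeR adjusted p = 0.0421).

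Timd4 (ENSMUSG00000055546) encodes TIM4, a receptor for the phosphatidylserine that dying cells expose, and marks long-settled Kupffer cells. It stood at 8.84, 8.22 and 5.67 CPM in HFD plus HQHF livers, 3.98, 3.11, 2.39 and 0.72 CPM in HFD livers, and 9.59, 6.15 and 6.47 CPM in control livers. The HFD livers lay below all others, and HFD 4 (42 reads) was far below its own group. The fall in HFD livers relative to control livers was -1.54 ± 0.44 in log2 (2.55 ± 1.38 CPM, SD, n = 4, against 7.40 ± 1.90 CPM, n = 3; edgeR adjusted p = 0.0282). HFD plus HQHF livers were at 7.58 ± 1.68 CPM (n = 3), and the rise relative to HFD livers was 1.57 ± 0.44 in log2 (edgeR adjusted p = 0.0336).

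Cd163 (ENSMUSG00000008845) encodes the scavenger receptor that takes up complexes of haemoglobin and haptoglobin, and its change was the largest of the 10 genes in both comparisons. HFD plus HQHF livers had 46.6, 22.2 and 35.1 CPM, HFD livers 8.84, 10.6, 7.90 and 0.91 CPM, and control livers 28.3, 36.2 and 23.6 CPM. Again no HFD liver reached the others, and HFD 4 (53 reads) was the lowest. The log2 fold change was -2.06 ± 0.61 for HFD against control livers (7.06 ± 4.25 CPM, SD, n = 4, and 29.4 ± 6.37 CPM, n = 3; edgeR adjusted p = 0.0361). For HFD plus HQHF livers (34.6 ± 12.2 CPM, n = 3) against HFD livers it was 2.29 ± 0.61 (edgeR adjusted p = 0.0330). Its ligand-side gene Hp, which encodes haptoglobin, did not pass the test in either comparison with TMM (0.45 and 0.70 in log2, edgeR adjusted p = 0.396 and 0.20). All HFD livers lay above all control livers for Hp. With library totals Hp was called higher in HFD livers relative to control livers (1.06, edgeR adjusted p = 0.0234). In the second comparison it was at 0.11 and not called on that scaling.

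Folr2 (ENSMUSG00000032725) encodes folate receptor beta, a macrophage surface protein. Its levels were 13.7, 12.8 and 10.5 CPM in HFD plus HQHF livers, 8.05, 5.29, 5.33 and 4.06 CPM in HFD livers, and 9.90, 8.43 and 9.49 CPM in control livers. HFD 1 came closest to the controls, and none of the 4 HFD livers overlapped either other group. Folr2 fell in HFD livers relative to control livers by 0.71 ± 0.22 on the log2 scale (edgeR adjusted p = 0.0361) and rose in HFD plus HQHF livers relative to HFD livers by 1.12 ± 0.22 (edgeR adjusted p = 0.0099), the smallest adjusted p of any member in that comparison.

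The 3 chains of C1q (C1qa, ENSMUSG00000036887; C1qb, ENSMUSG00000036905; C1qc, ENSMUSG00000036896) form the molecule that starts the classical complement pathway and tags dying cells; macrophages are a main source of it. C1qb had 58.2, 45.9 and 42.0 CPM in HFD plus HQHF livers, 84.6, 44.7, 51.7 and 80.2 CPM in HFD livers, and 36.6, 32.1 and 42.2 CPM in control livers. C1qc had 35.7, 26.8 and 25.9 CPM in HFD plus HQHF livers, 49.5, 26.2, 36.6 and 45.6 CPM in HFD livers, and 18.2, 22.7 and 28.6 CPM in control livers. HFD 1 and HFD 4 were the highest for both chains, whereas HFD 4 was the lowest of all livers for the first 4 genes. C1qb rose in HFD livers relative to control livers by 0.82 ± 0.24 in log2 (edgeR adjusted p = 0.0282, no overlap), and C1qc by 0.77 ± 0.24 (edgeR adjusted p = 0.0352, with overlap). C1qa had 51.2, 35.1 and 31.4 CPM in HFD plus HQHF livers, 69.0, 35.9, 42.1 and 54.2 CPM in HFD livers, and 18.5, 27.6 and 42.5 CPM in control livers; its log2 fold change in HFD livers, 0.77 ± 0.31, missed the threshold (edgeR adjusted p = 0.0861). Relative to HFD livers, the chains in HFD plus HQHF livers were at -0.36, -0.42 and -0.42 for C1qa, C1qb and C1qc, none past the threshold (edgeR adjusted p between 0.215 and 0.425).

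The proportions of the chains varied between libraries, least for C1qc. Of their summed reads, C1qa made up 25.3% to 37.5% over the 10 libraries (median 33.0%), C1qb 37.2% to 49.9% (median 41.8%) and C1qc 24.4% to 28.0% (median 25.0%). The library with the lowest C1qa share and the highest C1qb share was control 1.

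Vsig4 (ENSMUSG00000044206) encodes CRIg, the complement receptor with which Kupffer cells catch opsonised bacteria. It was at 34.7, 23.7 and 22.5 CPM in HFD plus HQHF livers, 19.9, 17.1, 17.6 and 19.0 CPM in HFD livers, and 25.6, 22.0 and 16.9 CPM in control livers. The 3 HFD plus HQHF livers lay above the 4 HFD livers, with a log2 fold change of 0.55 ± 0.18 that missed the threshold (edgeR adjusted p = 0.0561). DESeq2 called it, which made 5 members higher there, but DESeq2 also called 1716 of all entries higher, against 1086 by edgeR. With library totals Vsig4 was at -0.0055. HFD and control livers overlapped (log2 fold change -0.23 ± 0.18, edgeR adjusted p = 0.383; 0.36 with library totals).

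Cd5l (ENSMUSG00000015854) encodes a secreted protein with scavenger receptor domains, also called AIM. Its levels were 174, 110.4 and 98.7 CPM in HFD plus HQHF livers, 169.7, 96.0, 102 and 104 CPM in HFD livers, and 131, 89.1 and 95.7 CPM in control livers. HFD plus HQHF 1, HFD 1 and control 1 were the highest of their groups, and the groups overlapped. The log2 fold changes were 0.12 ± 0.26 for HFD plus HQHF against HFD livers (edgeR adjusted p = 0.779; -0.43 with library totals) and 0.16 ± 0.26 for HFD against control livers (edgeR adjusted p = 0.676; 0.75 with library totals, where it was called higher).

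Marco (ENSMUSG00000026390) encodes a collagen-like scavenger receptor for bacteria and particles. It was at 7.93, 5.27 and 5.67 CPM in HFD plus HQHF livers, 11.5, 7.50, 10.8 and 7.20 CPM in HFD livers, and 26.1, 5.61 and 6.92 CPM in control livers. Control 1 alone was above all others, and it is the library with the acinar markers; their part in this value was not tested. With it, Marco was at -0.48 ± 0.47 in HFD livers relative to control livers (edgeR adjusted p = 0.474; 0.11 with library totals), and without it at 0.56. Relative to control livers, HFD plus HQHF livers were at -1.04 ± 0.51 with control 1 and 0.0053 without it.

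Counted over the 10 genes, 4 were called lower and 2 higher in HFD livers relative to control livers, against 9.89% lower and 16.3% higher (26.2% in either direction) among all 13832 entries tested. Relative to HFD livers, HFD plus HQHF livers had 4 called higher and 0 lower, against 7.85% higher and 11.1% lower (18.9% in either direction) among all entries. The members' median log2 fold change was -0.35 in the first comparison (0.06 over all entries) and 0.33 in the second (-0.07 over all entries). Groups did not overlap for 5 members in each comparison, where 36.7% and 30.7% of all entries did not. The counts hang on single libraries: without control 1, control 3 or control 4 the members called lower in HFD livers fell to 0, without HFD 3 to 1, and without HFD 2, HFD 4 or HFD plus HQHF 1 to 2. The members called higher in HFD livers fell to 0 without HFD 1, HFD 4, control 1 or control 3. The members called higher in HFD plus HQHF livers fell to 1 without HFD plus HQHF 1 and to 2 without HFD plus HQHF 2. Calls over all entries also moved as each library was left out in turn. In HFD livers they ran from 862 to 2349 higher and 617 to 1533 lower, against 2257 and 1368 with all 10 libraries. In HFD plus HQHF livers relative to HFD livers 281 to 1360 were higher, against 1086. Directions held in each of these refits: over leaving out each library in turn the log2 fold change in HFD livers stayed between -0.96 and -0.63 for Clec4f, -1.83 and -1.22 for Timd4, -2.32 and -1.68 for Cd163, and -0.92 and -0.57 for Folr2.

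The scaling of the libraries bears on these calls. With library totals in place of TMM, the median log2 fold change of all entries moved to 0.66 in HFD livers relative to control livers and to -0.62 in HFD plus HQHF livers relative to HFD livers, and calls shifted with it: in the first comparison 50.9% of entries were higher and 1.11% lower (52% in all), and in the second 0.99% were higher and 47% lower (48% in all). Under totals 0 members were called lower in HFD livers, with log2 fold changes of -0.18 for Clec4f, -0.96 for Timd4, -1.48 for Cd163 and -0.11 for Folr2. Cd5l and the 3 C1q chains were then called higher, the chains at 1.38 to 1.42. Measured from the median of all entries, the totals-based changes were -0.83 for Clec4f, -1.61 for Timd4, -2.13 for Cd163 and -0.77 for Folr2, and 0.72 to 0.76 for the C1q chains. For HFD plus HQHF against HFD livers, totals gave 1 member called higher (Clec4f) and 3 called lower (the C1q chains, -0.97 to -0.91), while Timd4, Cd163 and Folr2 were at 1.04, 1.73 and 0.58.

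**Figure D2:**
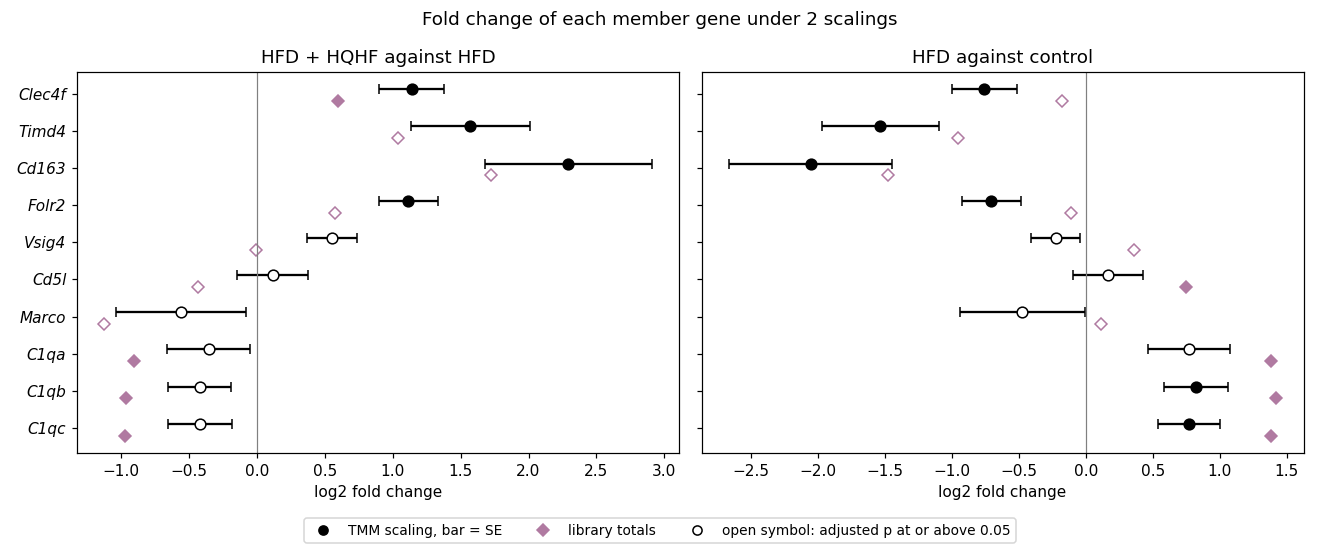
Log2 fold change (horizontal axis) of each gene for HFD plus HQHF against HFD livers (left) and HFD against control livers (right); circles are TMM scaling with SE bars, diamonds library totals, and open symbols had an adjusted p of at least 0.05. Cd163 lies farthest from 0 under TMM in both panels (2.29 and -2.06), and every diamond lies left of its circle in the left panel and right of it in the right panel, which puts Vsig4 and Cd5l on the other side of 0 in the left panel and Vsig4 and Marco in the right.

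A comparison that needs no scaling sets each gene's reads against those of Csf1r, the receptor for CSF1 that all macrophages carry, within the same library. Csf1r itself was not called in HFD livers relative to control livers (0.20 ± 0.25, edgeR adjusted p = 0.590) or in HFD plus HQHF livers relative to HFD livers (-0.25 ± 0.25, edgeR adjusted p = 0.506) with TMM; with library totals it was called higher in HFD livers relative to control livers (0.78) and lower in HFD plus HQHF livers relative to HFD livers (-0.79). Per 100 Csf1r reads there were 180.0, 211 and 128 Clec4f reads in HFD plus HQHF livers, 68.2, 78.3, 79.2 and 40.8 in HFD livers, and 138, 119 and 118 in control livers. For Cd163 there were 43.6, 35.0 and 35.7 in HFD plus HQHF livers, 6.31, 10.8, 11.8 and 0.757 in HFD livers, and 30.6, 41.6 and 23.9 in control livers. The HFD livers thus lay below both other groups relative to Csf1r too.

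Timd4 had 8.27, 12.96 and 5.78 reads per 100 Csf1r reads in HFD plus HQHF livers, 2.84, 3.18, 3.58 and 0.600 in HFD livers, and 10.4, 7.07 and 6.56 in control livers. Folr2 had 12.8, 20.2 and 10.7 in HFD plus HQHF livers, 5.75, 5.42, 7.99 and 3.37 in HFD livers, and 10.7, 9.69 and 9.61 in control livers. Between HFD and control livers these ratios differed by -0.95 (Clec4f), -1.89 (Timd4), -2.65 (Cd163) and -0.89 (Folr2) in log2, and between HFD plus HQHF and HFD livers by 1.40, 2.02, 2.93 and 1.38. Each of these 8 differences had no overlap and the smallest p that an exact two-sided permutation test of 4 against 3 libraries can give, 0.0571; over the family of 30 such tests the smallest adjusted p was 0.190, so none could pass the threshold. Reads of C1qb per 100 Csf1r reads were 54.4, 72.4 and 42.8 in HFD plus HQHF livers, 60.4, 45.8, 77.5 and 66.6 in HFD livers, and 39.5, 36.9 and 42.7 in control livers, which put all HFD livers above the controls (0.63 in log2, exact permutation p = 0.0571). The ratio of Cd5l to Csf1r was at -0.0012 in log2 between HFD and control livers, with overlap.

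Set against Adgre1, which encodes the macrophage surface protein F4/80, the 4 genes again lay lower in all HFD livers than in all control livers (-1.02, -1.96, -2.71 and -0.96 in log2 for Clec4f, Timd4, Cd163 and Folr2). Set against the summed C1q reads, they were at -1.58, -2.52, -3.27 and -1.52 in HFD relative to control livers and at 1.54, 2.16, 3.07 and 1.53 in HFD plus HQHF relative to HFD livers, all without overlap. Against Clec4f itself, Folr2 was at 0.06 in HFD relative to control livers and Cd163 at -1.69, so that Folr2 and Clec4f changed by about the same factor and Cd163 by more.

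The choice of denominator decides the direction for C1q and moves Cd5l, Vsig4 and Marco. Cd68 itself rose in HFD livers relative to control livers (1.38) and fell in HFD plus HQHF livers relative to HFD livers (-1.27). Set against Cd68, every member lay lower in HFD relative to control livers, C1qb at -0.56 and C1qc at -0.59 in log2, Cd5l at -1.20, Vsig4 at -1.55 and Marco at -1.49, all without overlap, and C1qa at -0.54 with overlap. Clec4f, Timd4, Cd163 and Folr2 were at -2.15, -3.09, -3.84 and -2.09 on this scale. For HFD plus HQHF against HFD livers all 10 ratios to Cd68 were higher without overlap, from 0.70 for Marco and 0.86 to 0.91 for the C1q chains, through 1.36 for Cd5l, to 3.95 for Cd163. Clec4f, Timd4, Cd163 and Folr2 thus kept their direction against Csf1r and Adgre1, neither of which was called in either comparison with TMM. They also kept it against Cd68 and the C1q sum. That was fixed in advance, because Cd68 and the C1q chains changed the other way from these 4 genes in both comparisons. With TMM the chains were not called in the second comparison, and C1qa in neither. The C1q chains lay higher in HFD than in control livers against Csf1r, without overlap only for C1qb, and lower against Cd68.

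**Figure D3:**
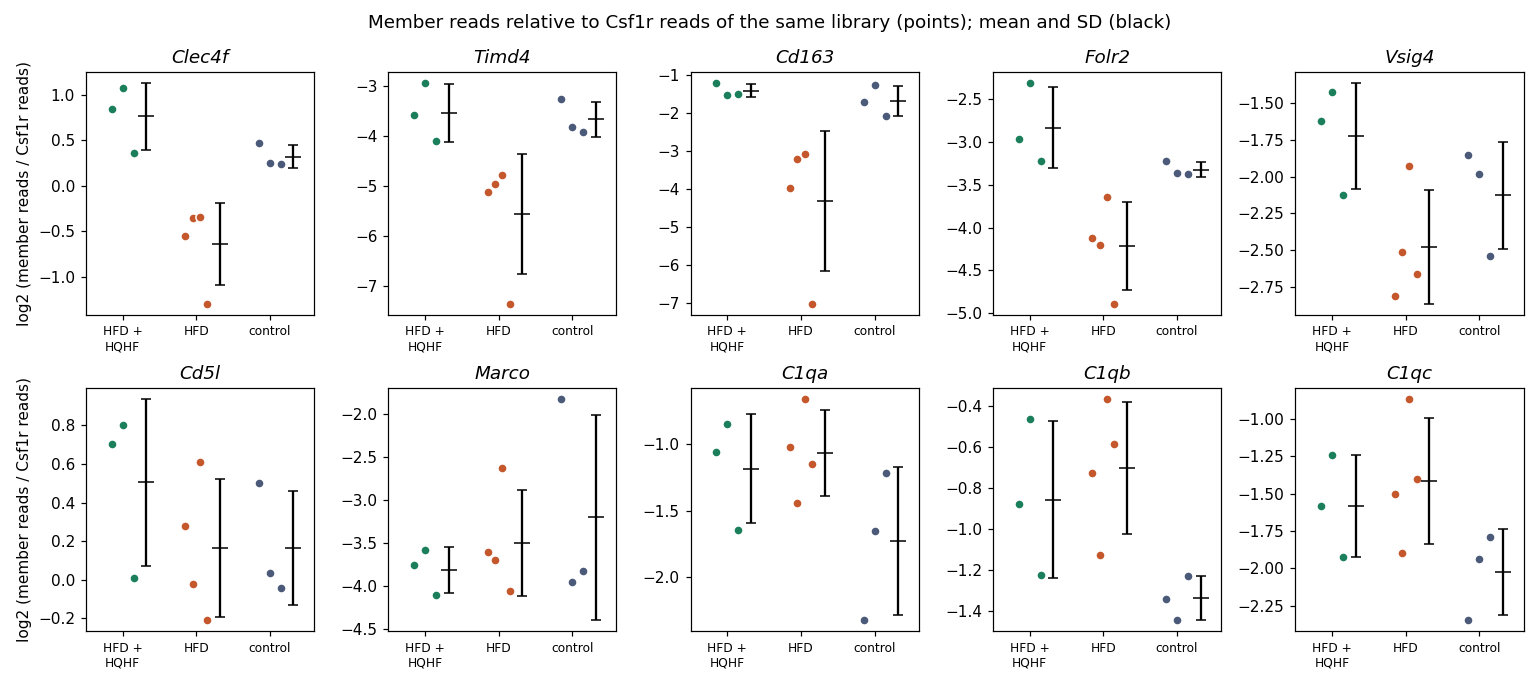
Log2 of each gene's reads over the Csf1r reads of the same library (vertical axis) by group; points are the 10 libraries, bars mean and SD. In the panels of Clec4f, Timd4, Cd163 and Folr2 the HFD points lie apart below both other groups, with HFD 4 the lowest in each (Timd4 at -7.36); the Cd5l points overlap between all groups.

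HFD plus HQHF livers and control livers were called different for 0 of the 10 genes by edgeR and by DESeq2, and 0 members had an unadjusted p under 0.05 in edgeR; among all entries 0% were called by edgeR, 1008 had an unadjusted p under 0.05, and DESeq2 called 44 higher and 28 lower. The log2 fold changes were 0.38 for Clec4f (95% interval from the SE -0.13 to 0.89), 0.03 for Timd4 (-0.88 to 0.94), 0.24 for Cd163 (-1.02 to 1.50) and 0.41 for Folr2 (-0.05 to 0.87). For Folr2 all HFD plus HQHF livers were above all control livers, where 15.1% of all entries had groups that did not overlap. The C1q chains were at 0.41 for C1qa, 0.40 for C1qb and 0.35 for C1qc, with intervals that all include 0. All these intervals use the normal quantile, which makes them too narrow for so few livers. That of Marco, -2.04 to -0.0359, left out 0 although its unadjusted edgeR p was 0.0691. A p that missed the threshold with 3 livers on each side does not show that the groups were equal.

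Other Kupffer cell and macrophage genes were read from lists. Of all entries, 16.3% were called higher and 9.89% lower in HFD livers relative to control livers with TMM. In HFD plus HQHF livers relative to HFD livers, 7.85% were higher and 11.1% lower. With library totals these shares were 50.9% and 1.11%, then 0.99% and 47%. List counts near these shares are no result about the list. Of 7 further Kupffer cell genes, 2 fell in HFD livers and 0 rose: Fcna, which encodes ficolin A (-1.03 ± 0.18, edgeR adjusted p = 0.00475), and Paqr9 (-1.50 ± 0.20, edgeR adjusted p = 0.0022). The same 2 genes rose in HFD plus HQHF livers relative to HFD livers (Fcna 1.26 ± 0.18, edgeR adjusted p = 0.00345; Paqr9 1.12 ± 0.20, edgeR adjusted p = 0.00816) and 0 fell. Fcna stood at 54.8, 45.6 and 47.4 CPM in HFD plus HQHF livers, 22.9, 25.6, 18.0 and 15.8 CPM in HFD livers, and 37.4, 47.8 and 40.4 CPM in control livers, with no overlap between HFD livers and either other group. With library totals the list had 3 genes higher and 1 lower in HFD livers relative to control livers, and 1 higher and 1 lower in HFD plus HQHF livers relative to HFD livers. On that scaling Fcna was at -0.44 and not called in the first comparison, and Paqr9 at 0.56 and not called in the second. With TMM, Paqr9 averaged 366 ± 86.4 CPM in HFD plus HQHF livers (SD, n = 3). It averaged 168 ± 27.2 CPM in HFD livers (n = 4) and 475 ± 63.9 CPM in control livers (n = 3). These means were above those of Clec4f in each group, and whether Paqr9 reads came from Kupffer cells or hepatocytes was not tested.

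Among 10 transcription factors of Kupffer cells, 2 rose in HFD livers relative to control livers and 0 fell, against 16.3% and 9.89% of all entries. These were Zeb2 (0.77 ± 0.16, edgeR adjusted p = 0.00835) and Spi1, which encodes PU.1 (1.24 ± 0.28, edgeR adjusted p = 0.0117); macrophages of all organs use both. Nr1h3, the gene of LXR-alpha, was at -0.38 ± 0.17 in HFD livers (edgeR adjusted p = 0.117; 0.24 with library totals). Nr1h3 rose in HFD plus HQHF livers relative to HFD livers (0.64 ± 0.17, edgeR adjusted p = 0.0281; 0.08 and not called with library totals) and Zeb2 fell (-0.55 ± 0.16, edgeR adjusted p = 0.0346). The median of the list was 0.32 in the first comparison and -0.19 in the second. With library totals 7 of the 10 were higher and 0 lower in HFD livers relative to control livers, and 0 were higher and 6 lower in HFD plus HQHF livers relative to HFD livers. On that scaling 50.9% of all entries were higher in the first comparison and 47% lower in the second. Hepatocytes also make Nr1h3, and its source was not tested.

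Of 13 general macrophage genes, 8 rose in HFD livers relative to control livers and 0 fell, with Cd68 at 1.38 ± 0.23 (edgeR adjusted p = 0.00443) and Lyz2, the lysozyme of macrophages and monocytes, at 1.52 ± 0.29 (edgeR adjusted p = 0.00656). Against HFD livers, 7 fell in HFD plus HQHF livers and 0 rose, with Cd68 at -1.27 ± 0.23 (edgeR adjusted p = 0.00829) and Laptm5 at -1.43 ± 0.29 (edgeR adjusted p = 0.0112). Adgre1 was not called in either (0.20 and -0.05), nor was Csf1r. With library totals all 13, Adgre1 among them (0.78), were called higher in HFD livers relative to control livers, and 11 were called lower in HFD plus HQHF livers relative to HFD livers.

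Of 13 genes of monocytes and recruited macrophages, 10 rose in HFD livers and 0 fell, and in HFD plus HQHF livers relative to HFD livers 9 fell and 0 rose. Mmp12, which encodes macrophage elastase, averaged 40.7 ± 12.5 CPM in HFD livers (SD, n = 4) against 0.313 ± 0.00515 CPM in control livers (n = 3), a log2 fold change of 7.01 ± 0.33 (edgeR adjusted p = 4.22e-06). Trem2, a lipid-sensing receptor of macrophages in fatty liver, was at 8.97 ± 3.39 CPM in HFD livers against 0.233 ± 0.088 CPM in control livers (5.26 ± 0.47, edgeR adjusted p = 0.000447). Mmp12 in HFD plus HQHF livers was at 0.552 ± 0.185 CPM (n = 3), lower than in HFD livers by a log2 fold change of -6.19 ± 0.31 (edgeR adjusted p = 8.2e-06). The summed level of all 13 was 50.5 to 72.1 CPM in HFD plus HQHF livers, 222 to 718 CPM in HFD livers and 54.7 to 93.2 CPM in control livers, and 0 of the 13 were without reads in any of the 10 libraries. Their part in the changes of the 10 Kupffer cell genes was not tested.

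Of 6 genes of resident macrophages of other organs 3 rose in HFD livers (F13a1, coagulation factor XIII, at 2.95 ± 0.58, edgeR adjusted p = 0.00724; Gas6 at 1.74 ± 0.38, edgeR adjusted p = 0.0108), with 0 lower. Of the 7 hepatocyte markers 3 fell in HFD livers and 0 rose, among them Cyp2e1 (-1.55 ± 0.37, edgeR adjusted p = 0.0153), and 2 rose and 0 fell in HFD plus HQHF livers relative to HFD livers. Cyp2e1 was not called in HFD livers with library totals (-0.92). On the TMM scale the summed hepatocyte markers were at 83941 to 111886 CPM in HFD plus HQHF livers, 40290 to 76276 CPM in HFD livers and 105213 to 136448 CPM in control livers, so all HFD livers lay below both other groups, as they did for Clec4f, Timd4, Cd163 and Folr2; the part of this in the changes of these genes was not tested. As a share of counts the sum was 6.91% to 9.47% in HFD plus HQHF livers, 5.68% to 9.55% in HFD livers and 9.05% to 12.2% in control livers, and HFD and HFD plus HQHF livers overlapped. Of 8 sinusoidal endothelial markers 0 were called in either comparison by edgeR with TMM; with library totals 3 were higher in HFD livers relative to control livers and 2 lower in HFD plus HQHF livers relative to HFD livers. Of 6 stellate cell markers 4 rose in HFD livers and 3 fell in HFD plus HQHF livers relative to HFD livers, and of 4 dendritic cell markers 2 rose and 2 fell in the same comparisons.

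Signals that keep Kupffer cells in their niche gave 2 of 9 genes higher in HFD livers and 0 lower: Csf1, the growth factor of macrophages (1.02 ± 0.22, edgeR adjusted p = 0.0103), and Dll4, a Notch ligand of the sinusoidal endothelium (0.81 ± 0.26, edgeR adjusted p = 0.0426). Of all entries, 16.3% were called higher and 9.89% lower there. Against HFD livers, Csf1 in HFD plus HQHF livers fell (-0.96 ± 0.22, edgeR adjusted p = 0.0166), Tgfb1 fell (-0.81 ± 0.25, edgeR adjusted p = 0.0459; named after its values were seen) and Bmp2 rose (0.62 ± 0.17, edgeR adjusted p = 0.0310; 0.06 with library totals). Among 12 receptors and bridging proteins for dead cells and waste, 5 rose in HFD livers and 0 fell, with Axl at 1.11 ± 0.24 (edgeR adjusted p = 0.0100), and 2 fell in HFD plus HQHF livers relative to HFD livers, Gas6 (-1.45 ± 0.37, edgeR adjusted p = 0.0253) and Mfge8 (-1.65 ± 0.48, edgeR adjusted p = 0.0412). Timd4, which shares the ligand phosphatidylserine with the products of Mfge8 and Gas6, changed in the other direction in both comparisons.

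Of 9 partners of C1q in the classical pathway 7 were tested; 0 rose in HFD livers and 1 fell, Serping1, the gene of the C1 inhibitor (-0.83 ± 0.26, edgeR adjusted p = 0.0403; -0.24 and not called with library totals). Against HFD livers, 0 of the 7 were called in HFD plus HQHF livers. Of 10 genes that handle haemoglobin, haem and iron beside Cd163, Hmox1, the haem-degrading enzyme, rose in HFD livers (0.65 ± 0.19, edgeR adjusted p = 0.0330) and fell in HFD plus HQHF livers relative to HFD livers (-0.84 ± 0.20, edgeR adjusted p = 0.0177), the reverse of Cd163, and the other 9 were not called. Slc40a1, the iron exporter, was at -0.31 ± 0.23 in HFD livers (edgeR adjusted p = 0.341). With library totals, calls in HFD livers relative to control livers were 12 higher of the 13 recruited macrophage genes, 6 higher of the 9 niche signals, 9 higher of the 12 dead-cell and waste receptors and 4 higher of the 10 haem genes, with 0 lower in each. On that scaling 13, 6, 7 and 2 genes of these lists, in the same order, were lower in HFD plus HQHF livers relative to HFD livers, and 0 higher. All 6 stellate genes, 3 of the 4 dendritic cell genes and 4 of the 6 genes of resident macrophages of other organs were likewise higher in HFD livers, and 4, 2 and 4 lower in HFD plus HQHF livers. On that scaling 50.9% of all entries were higher in HFD livers relative to control livers. In HFD plus HQHF livers relative to HFD livers 47% were lower. Between HFD plus HQHF and control livers 0 genes of any of these lists were called by edgeR.

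Over the 10 libraries, the genes whose log2 CPM followed a member most closely were named by Pearson's r, which describes libraries that share 3 groups and 1 scaling and carries no test. Clec4f was followed most closely by Urod (0.97), Ttc39c (0.96) and Folr2 (0.96). For Timd4 these were Mup21 (0.99), Mup13 (0.98) and Kat8 (0.98), and for Cd163 Mup3 (0.98), Mup7 (0.98) and Susd4 (0.98). The Mup genes encode major urinary proteins of hepatocytes and are near-identical copies, so the split of reads between them is uncertain. C1qa was followed by C1qc (0.96), Tnfaip8l2 (0.95) and Cyba (0.94). Marco was followed by Cpb1 (0.96), Klk1 (0.96) and Cela2a (0.88); Cpb1 and Cela2a encode pancreatic enzymes, and control 1 is the library in which acinar genes were high. Within the members, Timd4 and Cd163 had an r of 0.95 and Cd163 and C1qb an r of -0.68.

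The libraries set aside, HFD plus HQHF 3 and control 2, held no read of Clec4f, which allows at most 0.0796 CPM in HFD plus HQHF 3 and 0.0899 CPM in control 2 (3 reads each, counting error only), against 61.5 to 158 CPM of library totals in the other 10. Vsig4 had 0.265 CPM in HFD plus HQHF 3 and 6.38 CPM in control 2, against 12.9 to 28.6 CPM. Cd5l had 7.46 CPM in HFD plus HQHF 3 and 0.300 CPM in control 2, against 73.0 to 204 CPM. Marco was at 0.159 CPM (6 reads) in HFD plus HQHF 3 and 0.0599 CPM (2 reads) in control 2, against 4.80 to 22.5 CPM. These 4 genes were therefore low or without reads in both.

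Timd4 was at 0.133 CPM (5 reads) in HFD plus HQHF 3 but at 6.11 CPM (204 reads) in control 2, within the 0.904 to 8.24 CPM of the other libraries. Cd163 was at 29.1 CPM in HFD plus HQHF 3 and 221 CPM in control 2, against 1.14 to 38.4 CPM, and Folr2 at 15.6 CPM in HFD plus HQHF 3 and 85.8 CPM in control 2, against 5.08 to 12.0 CPM. C1qa, C1qb and C1qc were at 37.4, 56.5 and 29.1 CPM in HFD plus HQHF 3 and at 185, 159 and 194 CPM in control 2, the last all above the highest of the other 10 libraries (82.9, 102 and 59.4 CPM). General macrophage transcripts were present in both: Csf1r had 85.6 CPM in HFD plus HQHF 3 and 154 CPM in control 2. In control 2 the share of C1qa, 34.4%, lay within the range of the other 10 libraries. That of C1qb, 29.6%, lay below it and that of C1qc, 36.0%, above it. The hepatocyte markers of the labelled tissue were far below the other libraries, Alb standing at 0.743 CPM in HFD plus HQHF 3 and 46.4 CPM in control 2, against at least 35054 CPM in the other 10.

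**Figure D4:**
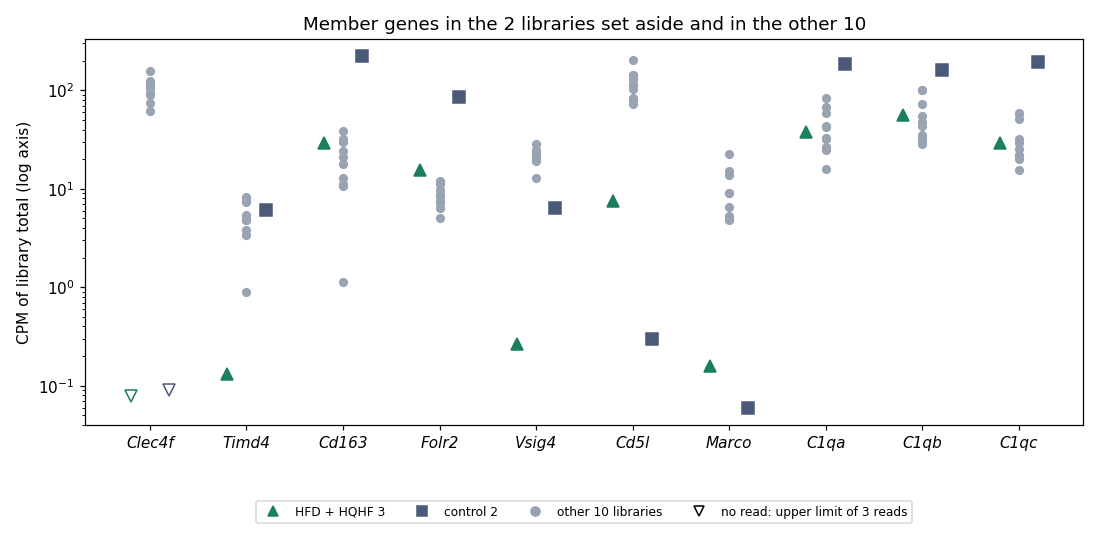
CPM of library total on a log axis for each gene in HFD plus HQHF 3 (green triangles), control 2 (blue squares) and the other 10 libraries (grey circles); open triangles mark genes without a read, drawn at the limit of 3 reads. Clec4f, Vsig4, Cd5l and Marco lie below the grey points in both libraries, and Cd163, Folr2 and the C1q chains of control 2 lie above them.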

How the data were processed

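Whole-liver total RNA was made into stranded libraries depleted of ribosomal RNA, per the labels' protocols. The authors deposited 1 table of whole-number counts per gene, without normalization; HISAT2, RSEM and the build GRCm39 are named in the submitters' processing notes, with versions, roles and use of strand not given in the sources used here. A table of miRNA counts was not used, and 0 columns lacked a sample.

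The counts were tested with edgeR 4.0.16 in R 4.3.3 (filterByExpr by group, TMM, robust glmQLFit, glmQLFTest) in 1 model of 3 group means over 10 libraries; the SE is the log2 fold change over the square root of F. TMM factors ran from 1.20 to 1.42 in the HFD libraries and from 0.763 to 0.939 in the others. The scaling thus differed between HFD and the other groups without overlap. Alternatives were DESeq2 1.42.0, other scalings and filters, and refits without single libraries. Ratios to Csf1r used log2 of counts plus 0.5 and exact permutation tests in scipy 1.17.1. The model was tested on simulated data with 200 changed genes. Likeness used log2 CPM with a prior count of 2. The labels do not say in words that each library is a separate mouse, so p-values measure the spread between these samples, which may be technical.

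The 10 genes, the other gene lists and the set of 10 libraries were chosen with earlier results of these data known, so no test was made over a list. Of other genes, the 2 with the smallest p per list and comparison are named, with Csf1r and Adgre1 always, and marker genes as needed; Tgfb1 was named after its values were seen. Promoter sequences are from RefSeq (GRCm38.p6), whose coordinates are not those of the counting build.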

Additional observations from a re-analysis of the deposited data

Results flagged for a closer look

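Of 40 groups of 4 libraries examined for a library far from the rest, 7 had such a library by Dixon's test at its 95% critical value, which chance alone passes in about 5% of groups. The 7 cannot be weighed against that 5%. The groups share libraries and correlated genes, and control 2, flagged below, had already been set aside as unlike the others. Relative to Csf1r, Timd4 in HFD 4 was far below the other HFD livers, at -7.36 in log2. Cd5l in HFD 1 was far above the other HFD livers, at 169.7 CPM. Control 2 was far from the other control livers, and above all of them, for Cd163 (221 CPM of library total), Folr2 (85.8), C1qa (185), C1qb (159) and C1qc (194). HFD plus HQHF 3, which entered no comparison, was above the 3 control livers used for Folr2 (15.6 CPM), C1qa (37.4), C1qb (56.5) and C1qc (29.1).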

How the results depend on the processing

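Fits on all 12 libraries gave 0 members higher and 0 lower in HFD livers relative to control livers and 0 higher in HFD plus HQHF livers relative to HFD livers, where the 10 libraries gave 2, 4 and 4; over all entries they called 7 higher and 0 lower, then 0 and 1, where the 10 libraries gave 2257, 1368, 1086 and 1532. Library totals gave 4, 0 and 1, with 3 members lower in the last comparison. Over all entries they gave 7041, 154 and 137, with 6496 lower in the last comparison. Fitting only the compared groups gave 0, 0 and 2, where over all entries it gave 1646, 1221 and 1021. A minimum change of 1.2-fold gave 0 and 2 in HFD livers, and 1679 and 762 over all entries. Leaving out control 1 and HFD 3 together (chosen after seeing the data) gave 0, 0 and 2. Over all entries it gave 1453, 916 and 1366. Leaving out each library in turn gave 0 to 2 members higher and 0 to 3 lower in HFD livers, and 1 to 5 higher in HFD plus HQHF livers. Over all entries these ranges were 862 to 2349, 617 to 1533 and 281 to 1360.

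The called members kept their direction in all 21 settings in both comparisons, except C1qc, at -0.27 in HFD livers with 12 libraries. Settings that kept the call numbered 9 of 21 for Clec4f, 14 for Timd4, 8 for Cd163, 9 for Folr2, 12 for C1qb and 13 for C1qc in HFD livers, and 19, 14, 11 and 19 for the first 4 in HFD plus HQHF livers. Members that were not called changed sign as follows. With 12 libraries, Vsig4 was at 0.0729 and C1qa at -0.0205 in HFD relative to control livers, Cd5l at -0.22 in HFD plus HQHF relative to HFD livers, and Timd4 at -0.16, Cd163 at -0.82, Folr2 at -0.73, C1qa at -0.47, C1qb at -0.15 and C1qc at -0.77 in HFD plus HQHF relative to control livers. With library totals, Vsig4 was at 0.36 and Marco at 0.11 in HFD relative to control livers, and Vsig4 at -0.0055 and Cd5l at -0.43 in HFD plus HQHF relative to HFD livers. Without control 1 and HFD 3, Marco was at 0.48 in HFD livers and 0.0058 in HFD plus HQHF livers, both relative to control livers. Leaving out each library in turn, Cd5l ran from -0.0602 to 0.34 and Marco from -0.90 to 0.56 in HFD livers, and Cd5l from -0.17 to 0.34 in HFD plus HQHF relative to HFD livers; relative to control livers HFD plus HQHF livers ran from -0.10 to 0.26 for Timd4, -0.0377 to 0.48 for Cd163, -0.0114 to 0.47 for Cd5l and -1.41 to 0.0053 for Marco. Apart from the effect of fewer libraries, the cause was not tested.

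Replicate numbers are not a stated pairing. Over 8 pairs with the same number the correlation of deviations from the group means ran from -0.05 to 0.12. Pairs with different numbers ran from -0.18 (HFD plus HQHF 2 and HFD 4) to 0.13 (HFD 2 and control 3). With so few libraries these values cannot exclude a pairing. With the replicate number as a block, 2 members were higher and 3 lower in HFD livers and 3 higher in HFD plus HQHF livers relative to HFD livers, Cd163 being no longer called in either, and Timd4 was at -0.12 in HFD plus HQHF relative to control livers. Over all entries the block gave 1888 higher and 952 lower in HFD livers, and 642 higher in HFD plus HQHF relative to HFD livers. The exact tests of ratios cannot reach the threshold at 3 or 4 libraries a group, so they say nothing of stability, and Timd4 rested on as few as 42 reads in a library.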
